A study of Mus musculus with 13 samples.

Results

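Among 5 livers of wild-type control mice, 2 carried a very high level of the Fos messenger RNA and 3 did not, and the comparison of these 2 groups is described here across 18193 genes. The livers were chosen by the Fos probe set with the highest mean over all 13 arrays of the series, with a level above 10 on the log2 scale taken as Fos-high. Fos read 12.68 and 12.73 in the 2 Fos-high livers and 6.91, 6.34 and 5.86 in the 3 Fos-low livers. No array lay near the limit: the nearest value above it was 12.68 and the nearest below it was 6.91. Because the Fos level chose the groups, every difference between them is a description of these 5 arrays and carries no test.

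The series set tumours from mir-122 knockout mice, which lack the main microRNA of hepatocytes, against livers of wild-type mice, all on a mixed B6/129 background. In which cells the gene was deleted is not stated in the labels. The wild-type controls were 2 livers at 11 months and 3 at 14 months of age, and the knockouts gave 3 tumours at 11 months and 5 at 14 months. Each array holds total RNA of frozen tissue, and no treatment, sex or time of day is given in the labels. The titles of 4 control arrays carry a number, while that of control_liver_14M replicate 3 carries none. Each age held 1 Fos-high liver, control_liver_11M replicate 1 and control_liver_14M replicate 3, so neither kind of liver came from 1 age alone. The Fos-low livers were control_liver_11M replicate 2 and control_liver_14M replicates 1 and 2. Wherever values of single arrays follow, they are log2 levels in this order: the Fos-high livers at 11 and 14 months, then the Fos-low livers in the order just given.

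Fos is an immediate early gene, part of a set that cells transcribe within minutes of a stimulus without making new protein. Its product pairs with Jun proteins to form the transcription factor AP-1, and the wider set holds the Egr and Nr4a factors as well as phosphatases and RNA-binding proteins that shut the signal down. In liver these genes are known to respond to partial hepatectomy, growth factors and cytokines. Messages of the set are short-lived, and the resting liver is known to hold little of them.

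The values were normalised across arrays by the authors, so total signal cannot be compared, and the medians of all 13 arrays lay between 5.13 and 5.22 on the log2 scale. The tissue label was set beside the mean log2 level of the 13 hepatocyte markers measured. This mean was 12.948 to 13.005 in the Fos-high livers and 12.942 to 13.081 in the Fos-low livers, above the median of all probe sets, 5.17. In the tumours it was 12.191 to 13.031, so it does not separate control liver from tumour. Each of these markers lay at or above that median in at least 1 control. Their summed linear level was 150041 and 150994 in the Fos-high livers against 147853 to 157288 in the Fos-low livers. The 2 Fos-high arrays were closer to each other than any other pair among the 78 pairs of arrays. They differed by more than 2-fold in 63 of 45101 probe sets (Pearson r 0.9948 over all probe sets), against 485 to 650 for the 3 pairs of Fos-low livers (r 0.9887 to 0.9905). A Fos-high and a Fos-low liver differed in 1060 to 1315 probe sets over 6 pairs, and 2 tumours in 1075 to 4508 over 28 pairs. The Fos-high arrays carry different ages in the labels, and the design text counts 2 and 3 control mice, yet whether they hold RNA of separate mice cannot be told from the values. Their agreement therefore says little about how far 2 such livers would vary, and results that rest on them were also computed with each of them left out.

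**Figure D1:**
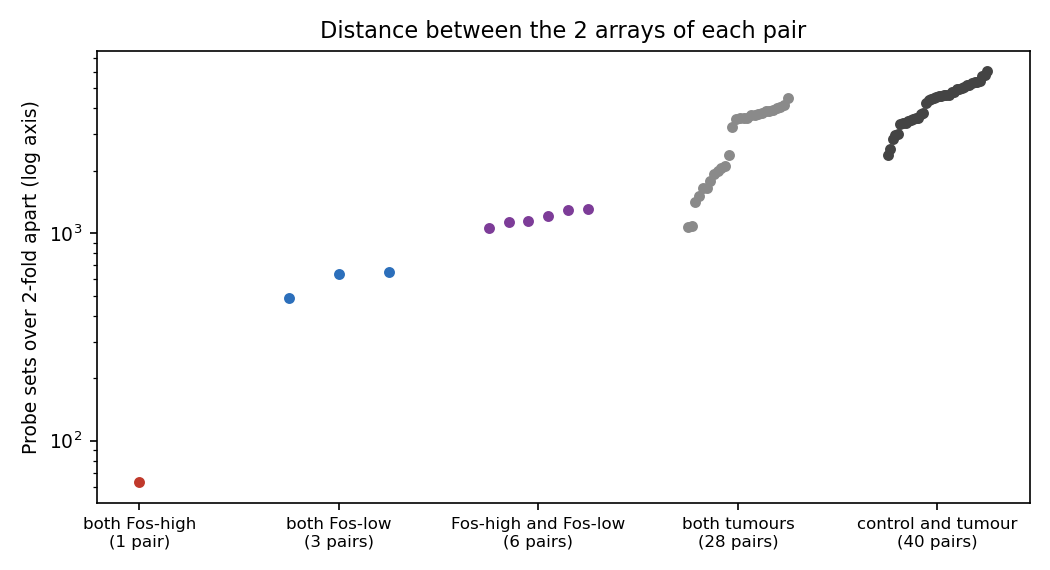
Number of probe sets more than 2-fold apart (log axis) for each of the 78 pairs of arrays, grouped by what the pair holds, with 1 point a pair spread sideways by rank. The pair of Fos-high livers sits at 63, below the 485 to 650 of the Fos-low pairs and the 1060 to 1315 of the mixed pairs.

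The Fos-high arrays were not copies of each other. At least 2-fold differences between them were seen in 15 genes (0.0824% of 18193). Antibody genes stood out among those higher at 11 months: Ighm, the heavy chain of IgM, read 9.73 at 11 months and 8.11 at 14 months, and Jchain, which joins IgM and IgA into larger complexes, read 7.28 and 6.06. Iglv1, Igkv8-30 and Igha differed in the same direction, by 1.49, 1.10 and 1.01. In the opposite direction Ifi204, an interferon-inducible DNA sensor, read 3.31 and 4.57, and the nuclear noncoding RNA Malat1 read 9.52 and 10.68. The globin gene Hbb-b2 read 5.74 and 6.81. No gene of the immediate early lists was among the 15. The spiked bacterial control BioB, a control of hybridisation, averaged 8.48 and 7.35, while the Fos-low livers read 8.26 to 8.73. Of the other spiked controls, BioD read 11.29 and 10.90 in the Fos-high livers and 11.32 to 11.57 in the Fos-low livers, and Cre read 13.20 and 12.93 against 13.27 to 13.40. Both were thus lower in the Fos-high arrays with no overlap, by less than 2-fold, and their part in the differences between the groups was not tested.

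With no overlap between the groups and a difference of at least 2-fold, 251 genes were higher in the Fos-high livers (1.38% of 18193) and 70 were lower (0.385%). Of the higher genes 55 differed by at least 4-fold and 22 by at least 8-fold, against 4 and 2 of the lower genes. The median difference was 1.46 for the higher genes and -1.23 for the lower genes, and 0.01 over all genes. Within the 251 genes the median gap between the Fos-high arrays was 0.17, and the median range over the 3 Fos-low arrays was 0.58. Without a limit on size, 3234 genes were higher with no overlap (17.8%) and 2702 were lower (14.9%). The shares over all genes, at 2-fold and at any size, belong beside each count by list that follows. Taken within each age, 196 genes were at least 2-fold higher at both ages and 41 were at least 2-fold lower. Of the 251 genes 126 had several probe sets. In 72 of these every probe set was higher with no overlap, whatever the size, and in 7 a probe set was lower with no overlap. The plot of group means places Egr2, Fos, Atf3, Egr1, Btg2 and Jun among the 8 genes farthest above the diagonal, beside Mt1 and Mt2.

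**Figure D2:**
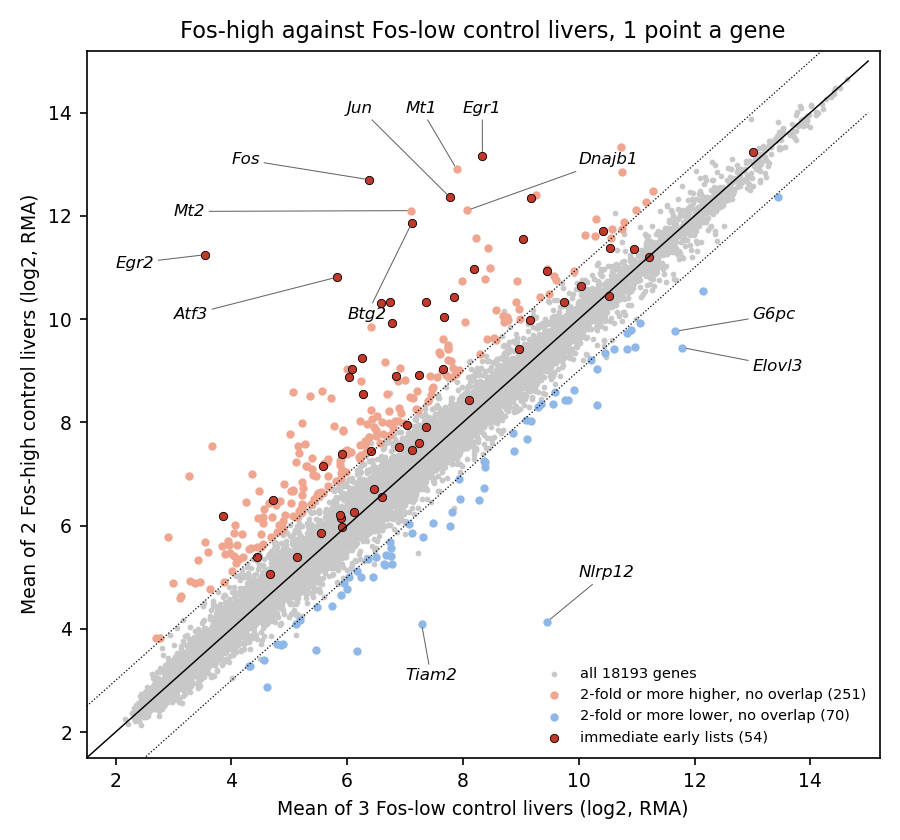
Mean log2 level of each of the 18193 genes in the 3 Fos-low livers (horizontal) and the 2 Fos-high livers (vertical), with the diagonal drawn solid and the 2-fold limits dotted. Genes of the 3 immediate early lists are outlined in black, and Egr2 lies farthest above the diagonal with a difference of 7.70 while Nlrp12 lies farthest below it with -5.32.

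The subunits of AP-1 were all higher in the Fos-high livers. All 7 measured members stood above the Fos-low range and 5 did so by at least 2-fold, Fos itself included, with a median difference of 2.33. Jun, the main partner of Fos, read 12.34 and 12.39 in the Fos-high livers and 7.80, 7.20 and 8.32 in the Fos-low livers, a difference of 4.59. Junb, a partner that can restrain Jun, read 10.60 and 10.07 against 6.97, 6.50 and 6.78, a difference of 3.59. For both genes the Fos-low livers lay close together and far below. Fosb, a close relative of Fos, read 6.04 and 6.32 against 3.71, 3.98 and 3.87, so it was near the low end of the scale in the Fos-low livers. Fosl2, a member of the family that appears later and lasts longer, read 8.66 and 8.43 against 6.15, 6.32 and 6.34. Its difference of 2.28 became 1.18 when its probe sets were averaged, since 1 of the 2 was higher with no overlap. Fosl1 and Jund, which is made steadily in many tissues, differed by 0.40 and 0.46.

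The transcription factors induced beside AP-1 included the largest difference on the array. Of 20 measured, 15 were higher with no overlap, 11 of them by at least 2-fold, none was lower, and the median difference was 1.26. Egr2, a zinc finger factor, read 11.17 and 11.33 in the Fos-high livers and 3.53, 3.65 and 3.46 in the Fos-low livers. The difference of 7.70 was the largest of all genes, and both probe sets of Egr2 were higher with no overlap. Egr1, its more widely expressed relative, read 13.23 and 13.11 against 8.95, 8.64 and 7.42, a difference of 4.83. Atf3, a factor of the stress response that can dimerise with Jun, read 11.06 and 10.56 against 5.89, 6.07 and 5.52. The nuclear receptor Nr4a1 differed by 2.97, Klf6 by 2.85 and Ier2 by 2.77. The proto-oncogene Myc, one of the 20 genes with the largest differences in the higher direction, read 10.22 and 9.62 against 6.22, 7.51 and 6.57. Members of the same families did not move together throughout: Egr3, Nr4a2 and Nr4a3 overlapped between the groups with differences of 0.15, 0.05 and -0.04.

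Genes that feed back on the signal were also higher. Of 27 measured feedback and effector genes 20 were higher with no overlap, 13 by at least 2-fold, and none was lower. Btg2, an antiproliferative gene, read 11.78 and 11.96 in the Fos-high livers and 6.83, 7.27 and 7.25 in the Fos-low livers. Socs3, the inhibitor of signalling through the interleukin-6 receptor, read 10.29 and 10.35 against 5.80, 7.70 and 6.27. Zfp36, which binds and destabilises cytokine messages, read 12.20 and 12.48 against 9.35, 8.52 and 9.68. The groups did not overlap for any of these, though Socs3 and Zfp36 ranged over more than 2-fold among the Fos-low livers. Smaller differences were seen in the phosphatases that switch off MAP kinases, 2.51 for Dusp6, 1.57 for Dusp5 and 1.48 for Dusp1. Ccn1, a secreted matrix protein, differed by 2.99, Gadd45a by 2.96 and the pseudokinase Trib1 by 2.58. Nfkbia and Btg1 overlapped between the groups, with differences of -0.02 and -0.06.

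Over the 3 immediate early lists together, 29 of 54 measured genes were higher by at least 2-fold with no overlap, none was lower, and 12 overlapped. The rule used this contrast, so the count stands beside the 1.38% of all genes only as a description.

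**Figure D3:**
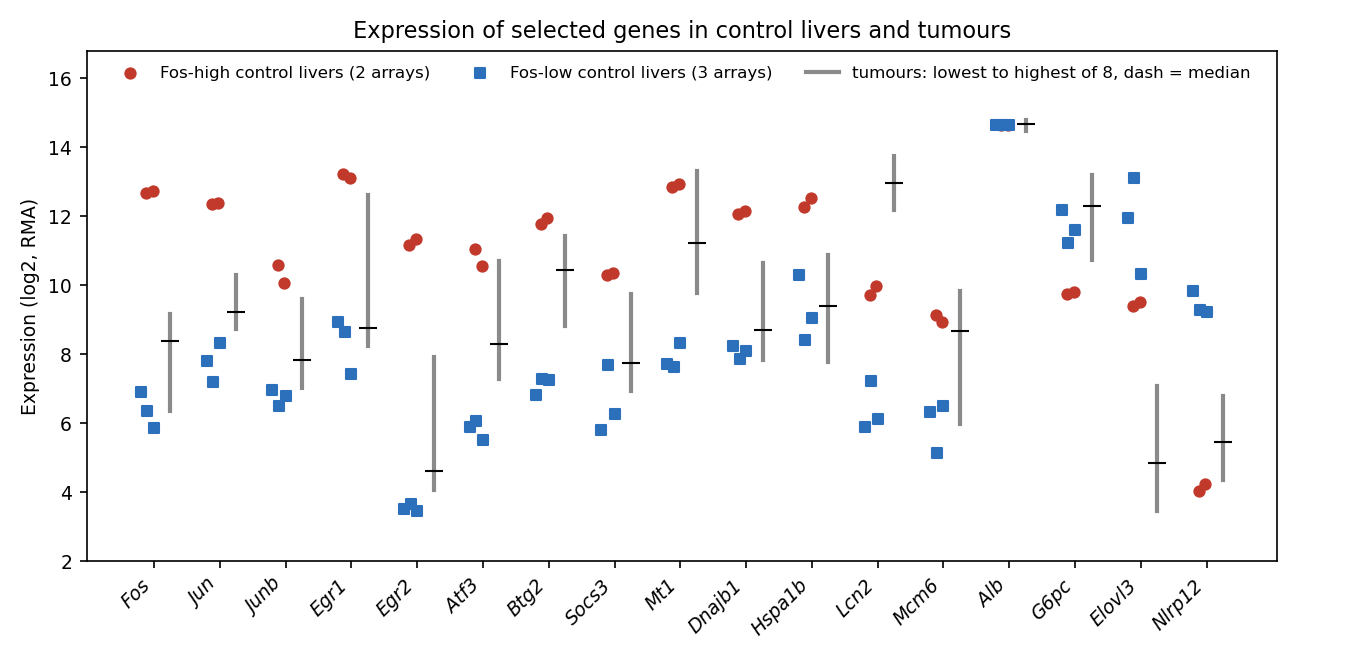
Log2 level of 17 genes in each of the 2 Fos-high livers (circles) and 3 Fos-low livers (squares), with the lowest to highest of the 8 tumours as a grey bar and their median as a dash. The circles lie far above the squares from Fos to Mcm6, coincide with them for Alb, and lie below them for G6pc, Elovl3 and Nlrp12.

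Promoter sequence of RefSeq (assembly GRCm38.p6) was available for 41 of the 54 immediate early genes, with 53 promoters, and the 250 bases before each start were searched on both strands. The letters TGACGT, the core of the cyclic AMP response element, were found in 17 of the 53 promoters (32.1%; 15 genes) and in 6.47% of all 32851 promoters. Its full palindrome TGACGTCA, whose matches also count as matches to the core, was found in 5 (9.43%) and in 1.55% of all. The CArG box, the site bound by serum response factor, was found in 7 promoters of 4 genes (13.2%) and in 1.47% of all. The letters TGANTCA, the AP-1 site itself, were found in 3 (5.66%) and in 6.75% of all. A match describes letters in this window and does not show that a factor binds there. The core was also found before Nr4a3 and Btg1, which overlapped between the groups. The windows below show the core, the palindrome and the CArG box in genes at least 2-fold higher with no overlap, with differences from 1.48 for Dusp1 to 7.70 for Egr2. Each is 30 bases, 5′ to 3′ on the strand of the gene, with the motif in capitals. They lie at chr12:85473812-85473841 (plus strand) for Fos, chr10:67537787-67537816 (plus) for Egr2, chr1:191183334-191183363 (minus) for Atf3, chr1:134079303-134079332 (minus) for Btg2, chr7:28379267-28379296 (minus) for Zfp36 and chr17:26508597-26508626 (minus) for Dusp1.
Fos, TGACGT: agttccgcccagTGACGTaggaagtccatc
Atf3, the same core read on the opposite strand: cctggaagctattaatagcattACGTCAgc
Btg2, TGACGTCA: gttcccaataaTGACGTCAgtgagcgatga
Dusp1, TGACGTCA: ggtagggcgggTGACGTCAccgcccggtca
Egr2, CArG box: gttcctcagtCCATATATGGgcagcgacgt
Zfp36, CArG box: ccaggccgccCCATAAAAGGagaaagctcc

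Heat shock genes, which encode chaperones that refold proteins, were at least 2-fold higher only for Dnajb1, Hspa1a and Hspa1b. The other members, among them Hsph1, Hspb1, Bag3 and Dnaja1, were not 2-fold apart with no overlap. Of 13 measured, 9 were higher with no overlap, 3 by at least 2-fold, and none was lower, with a median difference of 0.51. The shares of all genes higher by these rules were 17.8% and 1.38%. Dnajb1, the co-chaperone of Hsp70, read 12.06 and 12.15 in the Fos-high livers and 8.24, 7.87 and 8.10 in the Fos-low livers. Hspa1b, an inducible Hsp70, read 12.26 and 12.53 against 10.31, 8.41 and 9.04. Its near-identical copy Hspa1a read 8.48 and 8.68 against 6.16, 4.55 and 4.48, and probes for the 2 copies may not tell them apart. The Fos-low liver at 11 months stood highest of the 3 for both, so within 11 months the difference was 1.95 for Hspa1b and 2.32 for Hspa1a. The heat shock element core GAANNTTC was found in 6 of 16 promoters of this list (37.5%) and in 6.69% of all. The windows of both Hsp70 copies, at chr17:34959324-34959353 and chr17:34972242-34972271 (minus strand), show how alike the copies are.
Hspa1b: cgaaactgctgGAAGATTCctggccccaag
Hspa1a: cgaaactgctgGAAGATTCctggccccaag

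The metallothioneins, small proteins that bind zinc and copper, were among the 4 largest differences in the higher direction. Mt1 read 12.86 and 12.95 in the Fos-high livers and 7.73, 7.62 and 8.33 in the Fos-low livers, a difference of 5.01. Mt2 read 12.03 and 12.18 against 7.23, 7.05 and 7.03, nearly the same difference. Both genes respond to metals, glucocorticoids and inflammatory cytokines, and they stand in the lists of acute phase proteins and of glucocorticoid targets. The core of the metal response element, TGCACNC or TGCGCNC, lies in both promoters and in 21.4% of all. The windows nearest to the starts lie at chr8:94179054-94179083 and chr8:94172556-94172585 (plus strand), and in Mt2 the element reads on the opposite strand.
Mt1: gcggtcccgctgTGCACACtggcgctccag
Mt2: tggggggagggcGTGTGCAggctctgtccc

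Acute phase proteins, which the liver secretes in inflammation, were mixed. Of 26 measured, 7 were at least 2-fold higher with no overlap, 1 was at least 2-fold lower, and the median difference was 0.22. For the lists of this paragraph, the shares of all genes by this rule were 1.38% higher and 0.385% lower. Lcn2, a protein that binds bacterial siderophores, read 9.73 and 9.98 in the Fos-high livers and 5.88, 7.22 and 6.13 in the Fos-low livers, while the 8 tumours read 12.18 to 13.75. The serum amyloid genes Saa2 and Saa1 differed by 2.93 and 2.11, Orm2 by 1.91 and Cd14 by 1.82. Hamp, which encodes the iron hormone hepcidin and is known to follow interleukin-6, was the gene that was lower, with 12.23 and 12.50 against 13.65, 13.21 and 13.47. In the interleukin-6 and Stat3 list 2 of 12 genes were at least 2-fold higher, Socs3 and the kinase Pim3 (11.65 and 11.62 against 10.21, 9.28 and 10.85), and the median was -0.14. Il6 itself read 2.64 to 2.99 in all 5 controls, near the bottom of the scale.

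Among targets of NF-kappa B and chemokines, 4 of 15 were at least 2-fold higher and none was at least 2-fold lower. Cxcl1, which attracts neutrophils, read 11.66 and 11.51 in the Fos-high livers and 7.93, 8.27 and 8.47 in the Fos-low livers. Cxcl10, an interferon-inducible chemokine, read 7.78 and 8.19 against 5.27, 4.71 and 5.66. Neutrophil markers did not differ in the same way: none of 11 was 2-fold apart, 9 overlapped, and their summed linear level was 413 and 431 against 334 to 579. Interferon-stimulated genes were higher in 17 of 23 with no overlap, 5 by at least 2-fold, and lower in none, with a median of 0.64. Over all genes 17.8% were higher with no overlap, and 1.38% by at least 2-fold. Oas1a, an antiviral sensor of double-stranded RNA, read 8.92 and 8.68 against 6.85, 6.74 and 7.02, and Irf7, a master factor of the interferon response, read 9.36 and 9.28 against 7.84, 7.35 and 7.63. In this list the Fos-low livers lay within a narrow band for both genes.

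Cell cycle genes had the largest median difference outside the immediate early lists. Of 23 measured, 19 were higher with no overlap, 13 by at least 2-fold, and none was lower, with a median difference of 1.10. The shares of all genes higher by these rules were 17.8% and 1.38%. Mcm6, a subunit of the helicase that opens DNA for replication, read 9.14 and 8.94 in the Fos-high livers and 6.34, 5.13 and 6.51 in the Fos-low livers. Mcm5, another subunit, read 8.68 and 8.52 against 5.76, 5.10 and 5.85. Its difference of 3.03 became 1.94 when its 3 probe sets were averaged. Genes of mitosis differed less, by 2.23 for the spindle checkpoint target Cdc20, 1.95 for cyclin B2 (Ccnb2), 1.82 for Top2a and 1.10 for the proliferation marker Mki67. Against this direction Ccnf, which encodes cyclin F, was lower in both of its probe sets, with 6.15 and 5.83 against 7.79, 7.80 and 7.73.

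The antioxidant response, run by the factor Nrf2, was higher in 9 of 13 genes with no overlap and in 6 by at least 2-fold, and none was lower. For the lists of this paragraph, the shares of all genes higher by these rules were 17.8% and 1.38%. Gstm3, a glutathione transferase, read 13.38 and 13.28 in the Fos-high livers and 10.87, 10.48 and 10.83 in the Fos-low livers. Srxn1, which repairs oxidised peroxiredoxins, differed by 1.77 in the mean of the groups, Cbr3 by 1.57 and Nqo1 by 1.39. Targets of p53 were higher in 10 of 14, 5 by at least 2-fold, among them Btg2, the kinase Plk3 (2.36) and the death receptor Eda2r (1.52). The unfolded protein response and the hypoxia response held 1 such gene each, Ddit3 (1.14) and Pfkfb3 (1.34), and their medians were 0.02 and 0.01. Without control_liver_14M replicate 1 the difference of Pfkfb3 was 0.62.

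**Figure D4:**
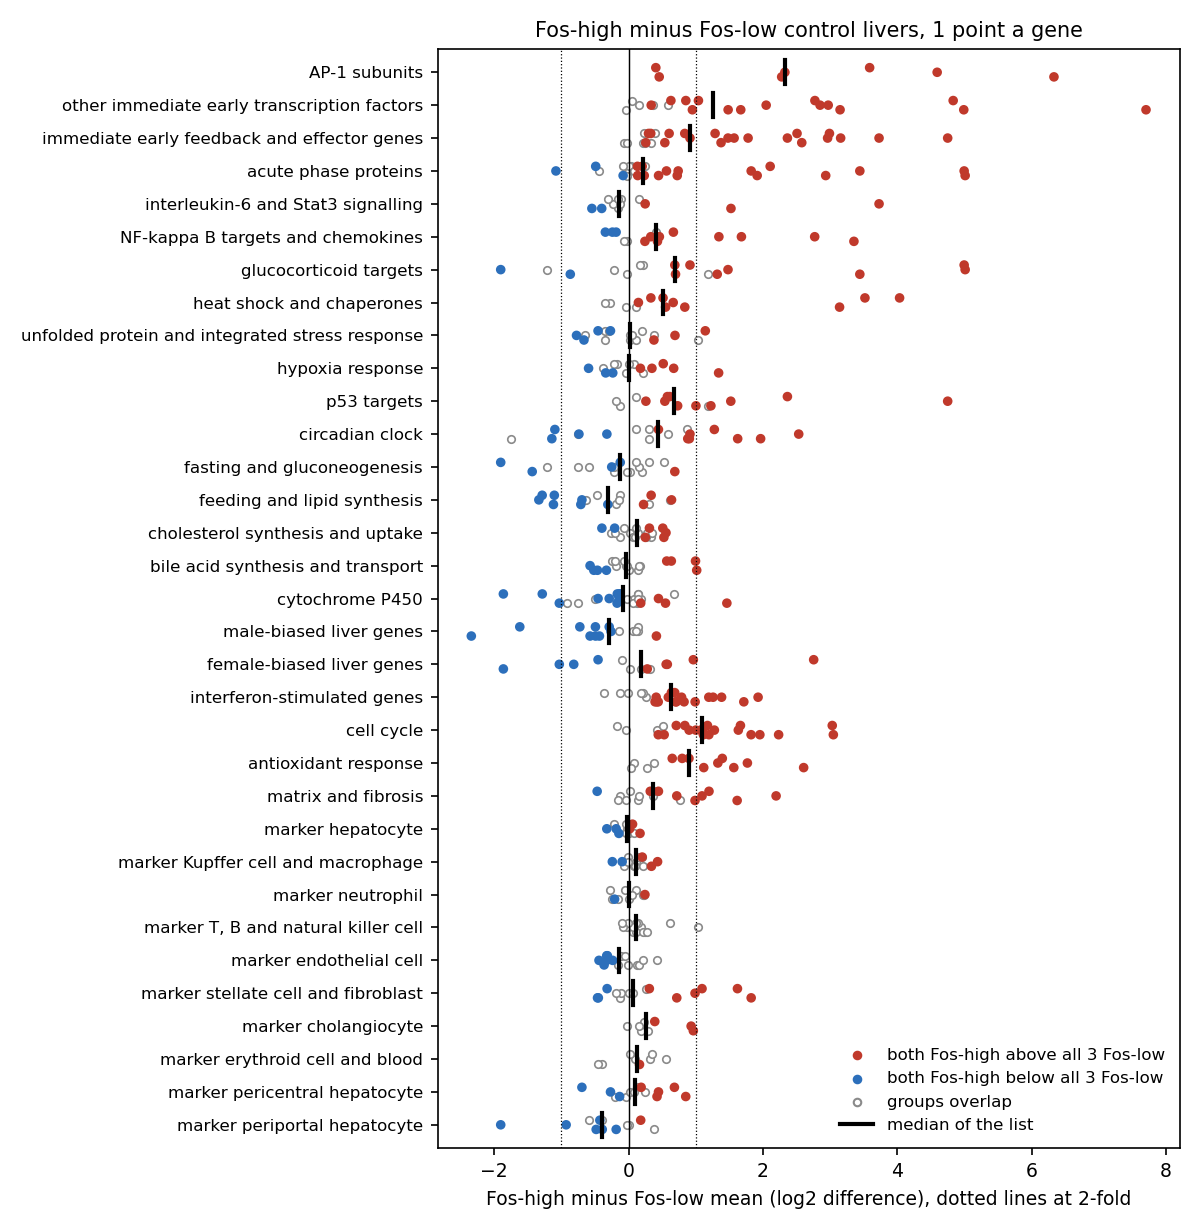
Difference between the Fos-high and the Fos-low mean (log2) for each measured gene of 33 lists, with filled points where the groups do not overlap, open points where they do, a black bar at the median and dotted lines at 2-fold. The 3 immediate early lists, with medians of 2.33, 1.26 and 0.91, and the cell cycle list, with 1.10, lie to the right, while the marker lists of cell types lie around 0.

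Genes lower in the Fos-high livers were fewer and less uniform. Nlrp12, a NOD-like receptor that restrains inflammatory signalling, read 4.02 and 4.24 in the Fos-high livers and 9.85, 9.27 and 9.24 in the Fos-low livers. This difference of -5.32 rests on 1 probe set, and the 8 tumours read 4.35 to 6.78. Tiam2, an exchange factor for the GTPase Rac, was next with -3.18, with 2 of its 3 probe sets lower with no overlap and a mean over them of -1.23. The nuclear noncoding RNA Neat1, the scaffold of paraspeckles, differed by -1.98 and by -0.91 over both probe sets. Rpgrip1 differed by -2.59, but of its 4 probe sets 1 was lower and 1 higher with no overlap, their mean gave -0.58, and without control_liver_14M replicate 1 the difference was -1.48.

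Enzymes of glucose and fat metabolism were among the lower genes. For the lists of this paragraph, the shares of all genes at least 2-fold apart with no overlap were 0.385% lower and 1.38% higher. G6pc, the last step of glucose release, read 9.74 and 9.79 in the Fos-high livers and 12.18, 11.21 and 11.62 in the Fos-low livers. The list of lipid synthesis held 4 of 17 genes at least 2-fold lower and none as much higher, with a median of -0.31. These were the fatty acid elongase Elovl6 (-1.34), malic enzyme Me1 (-1.29), the carbohydrate-responsive factor Mlxipl (-1.12) and fatty acid synthase Fasn (-1.11). For Elovl6 the mean of 3 probe sets gave -0.54. Fasting genes held 2 of 17 lower, G6pc and Acot1 (-1.44), with a median of -0.12, and Pck1, the other control point of gluconeogenesis, overlapped between the groups. Cholesterol synthesis held no gene at least 2-fold apart among 20.

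Elovl3, an elongase that is higher in male liver and follows the clock, read 9.39 and 9.51 against 11.94, 13.11 and 10.32. Of 15 male-biased genes 9 were lower with no overlap and 2 of them by at least 2-fold, Elovl3 and Ugt2b38 (-1.62). Over all genes 14.9% were lower with no overlap, and 0.385% by at least 2-fold. Among 13 female-biased genes 1 was at least 2-fold higher, the proton pump subunit Atp6v0d2 (2.76), and 2 were lower, Cyp2b9 and Cyp17a1 (-1.03). Cyp2b9 read 3.63 and 3.55 against 3.85 to 7.51, highest in control_liver_11M replicate 2, and without that array its difference of -1.87 was -0.84. Of 26 cytochrome P450 genes 3 were at least 2-fold lower, Cyp2b9, Cyp17a1 and the retinoic acid hydroxylase Cyp26a1 (-1.29), and Cyp2c55 was higher (1.46). Sult1e1, which inactivates oestrogens and stood outside the lists, was higher with 7.64 and 7.43 against 3.18, 4.56 and 3.27.

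Clock genes varied widely among the Fos-low livers. Dbp, an output gene with a strong daily rhythm, read 10.84 and 11.16 in the Fos-high livers and 8.98, 5.66 and 10.75 in the Fos-low livers. Arntl, which peaks when Dbp is low, read 5.56 and 5.37 against 7.39, 8.71 and 5.55 and overlapped between the groups. By both genes the Fos-low liver control_liver_14M replicate 2 lay close to the Fos-high livers, and control_liver_14M replicate 1 lay farthest away. In all, 4 of 19 clock genes were at least 2-fold higher (Dbp, Usp2 with 1.97, Ciart with 1.62 and Per2 with 1.28) and 2 were lower (Nfil3 with -1.14 and Cry1 with -1.10). Over all genes these shares were 1.38% and 0.385%. Without control_liver_14M replicate 1 the differences were 1.13 for Dbp, -0.72 for Nfil3 and -0.44 for Cry1. The part of the clock in the other differences was not tested. The array control_liver_14M replicate 2 was placed in its group by its low Fos, and nothing about the clock is read from its values.

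Few markers of cell types were at least 2-fold apart, though some lists were shifted by less. No marker was at least 2-fold apart with no overlap among 13 for hepatocytes, 14 for Kupffer cells and macrophages, 11 for neutrophils, 15 for lymphocytes, 14 for endothelial cells, 8 for bile duct cells and 8 for blood. The lymphocyte marker Ighm differed by 1.03 in the means, but the groups overlapped. Kupffer cell markers summed to 8088 and 8366 in the Fos-high livers against 7050 to 8922 on the linear scale, and lymphocyte markers to 788 and 1462 against 671 to 835, the 1462 being the 11-month liver with high Ighm. Of these lymphocyte markers 8 of 15 lay below the median level in all controls, as did 6 of 11 neutrophil markers. Endothelial markers summed to 3666 and 3819 against 4317 to 4430, with 6 of 14 lower with no overlap (14.9% of all genes). Bile duct markers summed to 565 to 599 in the Fos-high livers against 399 to 530. Among these 8, 3 were higher with no overlap (17.8% of all genes), none was lower, and 3 lay below the median level in all controls. Stellate cell and fibroblast markers held 3 of 15 at least 2-fold higher, the contractile genes Acta2 (9.11 and 8.54 against 6.93 to 7.07) and Tagln (8.31 and 7.96 against 6.45, 6.48 and 6.60) and the collagen Col1a2 (1.09). Over all genes 1.38% were at least 2-fold higher with no overlap. The difference of Acta2, 1.82, was 0.68 over its 3 probe sets. The sum of the stellate cell and fibroblast list was 6190 and 7069 against 5936 to 6681, an overlap. Its mean log2 level was 8.034 to 8.227 against 7.702 to 7.858, with no overlap. In whole tissue, fewer cells of a type and less RNA per cell cannot be told apart. Markers of hepatocytes around the portal vein held 6 of 12 lower with no overlap (14.9% of all genes), with a median of -0.39. Of these, 1 was at least 2-fold lower, G6pc, and the mean log2 level of the list was 10.655 to 10.732 against 10.868 to 11.231. Markers of hepatocytes around the central vein held 5 of 14 higher with no overlap (17.8% of all genes) and 3 lower. Measures of RNA quality were close: the 3′ minus 5′ signal of Actb was 0.49 to 0.68 in the Fos-high livers and 0.68 to 0.93 in the Fos-low livers, and that of Gapdh was -0.14 to 0.02 and 0.03 to 0.14. These values lay slightly lower in the Fos-high livers, and their part in the differences was not tested.

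Age was the label-based comparison among controls, with 1 Fos-high liver among the 2 at 11 months and 1 among the 3 at 14 months. No gene passed between 14 and 11 months (0% of 18193; limma, adjusted p under 0.05), and 326 had an unadjusted p under 0.05 (1.79%). The smallest unadjusted p-values belonged to Vmn1r41, Dmrta1 and 4930488B22Rik, of which Dmrta1 was 0.81 higher at 14 months on the log2 scale (adjusted p = 1). For Fos the 14 minus 11 month difference was -1.48 with a standard error of 1.99 (limma, adjusted p = 1). Without both Fos-high livers 1 gene passed, Rnase2a, an eosinophil-type ribonuclease named here after its value was seen (adjusted p = 0.0328 in limma). It read 6.54 in control_liver_11M replicate 2 and 3.82 to 4.20 in the other 4 controls, and this fit had 1 control at 11 months, assumed to vary like the other groups. The same gene passed without control_liver_11M replicate 1 alone (adjusted p = 0.0048).

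The Fos-high livers lay above all 8 tumours for some of the genes picked for being high in them. The 8 tumours read 6.36 to 9.15 for Fos with a median of 8.39, between the Fos-low and the Fos-high livers. For Egr2 they read 4.06 to 7.92 and for Jun 8.75 to 10.29, all below both Fos-high livers. Of the 29 immediate early genes at least 2-fold higher, all 8 tumours lay below both Fos-high livers in 16, and above both in 2. Over the 251 higher genes these counts were 59 and 16. The median of the tumours was nearer to the Fos-low than to the Fos-high livers in 17 of the 29 genes and in 98 of the 251. Among the 70 lower genes all 8 tumours lay above both Fos-high livers in 27 and below both in 7, and the tumour median was nearer to the Fos-low livers in 31. All these genes were picked on the control arrays and no share over all genes is given, so the counts are only a description.

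Tumours against controls used the same 5 control arrays, so the comparison is not independent of the one above and both are given side by side. Without the Fos-high arrays, the 11-month control mean rests on 1 array, control_liver_11M replicate 2, while both ages keep equal weight. In the number of genes that pass, the loss of replicates and the loss of the Fos-high arrays cannot be told apart. With all 5 controls, 1872 genes were higher in tumours (10.3%) and 1785 were lower (9.81%; limma with both ages weighted equally, adjusted p under 0.05). Of the 54 immediate early genes 5 rose (Ier3, Ier5, Klf4, Tnfaip3 and Btg1) and 1 fell (Phlda1). With only the 3 Fos-low controls, 789 genes were higher (4.34%) and 579 were lower (3.18%), and of the immediate early genes 11 were higher and none was lower. Leaving out arrays for their high Fos lowers the control mean of Fos, and of genes that differ with it, by construction, so these 11 are a description of how the contrast depends on the 2 arrays. They were Ier3, Ier5, Klf4, Tnfaip3, Atf3, Btg2, Dusp6, Fosl2, Jun, Klf6 and Myc, of which the last 7 had not passed with all 5 controls. The median over the 54 genes was 0.11 with all controls and 0.87 with the Fos-low controls, against -0.05 and -0.03 over all genes.

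For Fos, Jun, Junb and Fosb the sign of the tumour difference turned with the choice of controls. The arrays left out were chosen by their high Fos, so a rise of Fos, and of genes that differ with it, follows by construction. None of the 7 passed with all 5 controls. Fos was -0.98 in tumours (SE 1.28, adjusted p = 0.601 in limma) with all 5 controls and 1.57 with the Fos-low controls. Jun was -0.45 (SE 0.90, adjusted p = 0.743) and 1.46, Junb -0.31 (adjusted p = 0.788) and 1.17, and Fosb -0.86 (adjusted p = 0.223) and 0.12. Fosl2, Fosl1 and Jund were positive with both sets of controls, with 1.22 and 2.20, 0.10 and 0.25, and 0.43 and 0.61. Leaving out a single Fos-high liver was enough to turn Fos, Jun and Junb: without control_liver_11M replicate 1 they were 0.46, 0.69 and 0.60, and without control_liver_14M replicate 3 they were 0.12, 0.32 and 0.26.

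**Figure D5:**
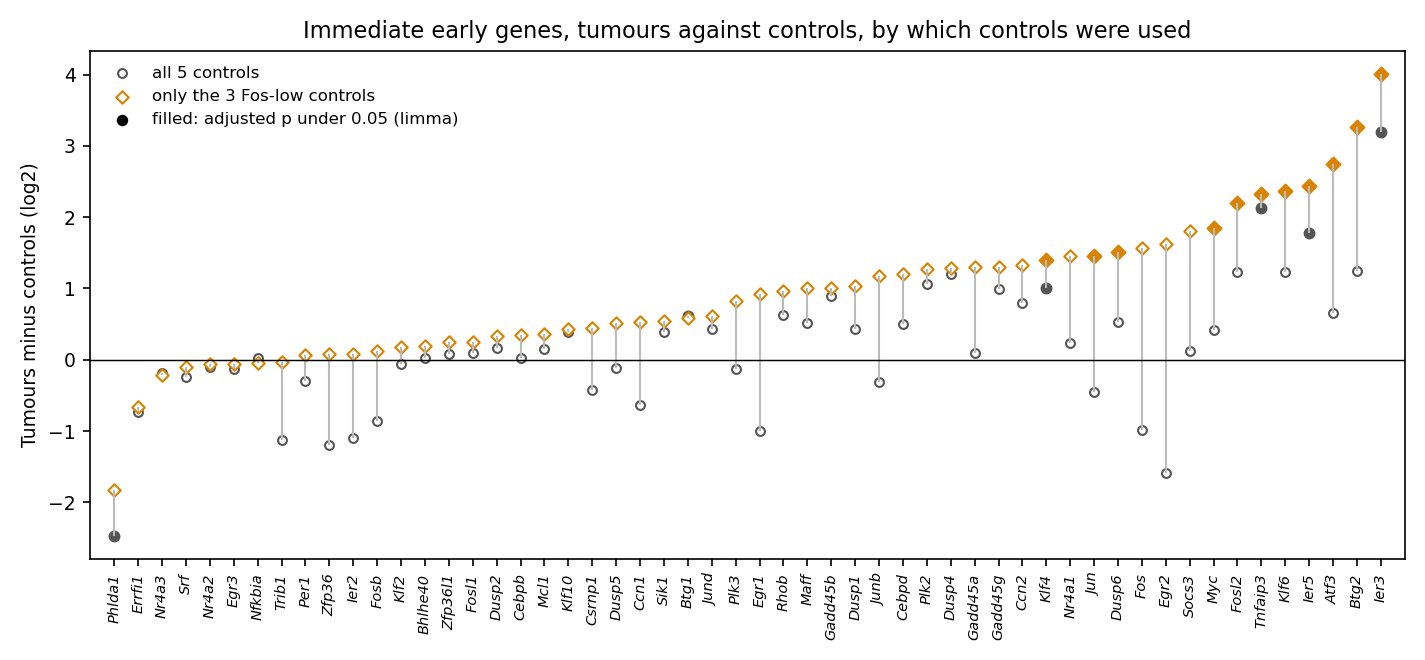
Tumours minus controls (log2 fold change of the limma fit, ages weighted equally) for 54 immediate early genes, with circles for all 5 controls and diamonds for the 3 Fos-low controls, filled where the adjusted p is under 0.05. The longest lines belong to Egr2, from -1.59 to 1.62, and Fos, from -0.98 to 1.57.

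Other named genes also shifted with the choice of controls. Lcn2 was higher in tumours with both sets of controls, by 5.31 (adjusted p = 0.000812 in limma) and 6.82, and Elovl3 was lower by both, with -5.60 (adjusted p = 0.00183) and -6.61. Mt1 was 1.36 with all controls (adjusted p = 0.391) and 3.47 with the Fos-low controls. Nlrp12 was -1.75 (adjusted p = 0.267) and -4.04. Gstm3 was 1.33 (adjusted p = 0.107) and 2.39. Among the 251 higher genes 50 passed in tumours with all controls (19.9%, against 20.1% of all genes) and 51 with the Fos-low controls (20.3%, against 7.52%), of which 31 passed with both. Among the 70 lower genes the counts were 12 (17.1%) and 16 (22.9%), with 10 in both. Both sets of genes were picked on the arrays that were then left out, so nothing is read from the second shares.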

How the data were processed

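RNA levels were measured in 13 samples, 1 one-colour Affymetrix array each, of which the 5 control livers are compared here. The deposited log2 values were computed by the authors with RMA in Partek software, per the labels and the submitters' processing notes. The version of Partek is not given in the sources used here, nor is the number of processing runs. The log base was read from the values, which range from 1.94 to 14.84. Arrays have no read depth, and their number limits the precision.

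Of 45101 probe sets, 34945 name 1 gene, 932 several and 9160 none in the platform annotation, and 64 are array controls. For each of 18193 genes the probe set brightest on average over 13 arrays was taken, with no filter on level. A gene was counted as different between Fos-high and Fos-low livers when the groups did not overlap and the means differed by at least 2-fold. Age and tumour contrasts used lmFit and eBayes of limma 3.58.1 (R 4.3.3; group means of all 13 arrays, prior degrees of freedom 2.314) with Benjamini-Hochberg adjustment over all genes and a threshold of 0.05. The fit was tested on simulated data. P-values measure the spread between these samples, since nothing beyond the design text says that each came from a separate mouse. Tables and figures were made in Python 3.11.15 with matplotlib 3.10.9, numpy 2.4.6 and pandas 2.3.3.

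The groups, the 33 gene lists (486 genes measured of 534 written) and the markers were chosen with earlier results of these data known. Named genes are all AP-1 subunits, the 20 largest differences in each direction with no overlap and the higher mean above the median level, up to 3 in each direction per list, the 3 smallest p-values between ages, and up to 10 in each direction between the Fos-high arrays, 111 in all. Other list members were named after their values were seen. The alternatives were probe sets averaged per gene, all probe sets, repeated quantile normalisation, arrays shifted to 1 median, only genes above the median level, a 1.5-fold limit, each age alone, a trend with robust spread, array weights, only control arrays, and each array or both Fos-high arrays left out.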

Additional observations from a re-analysis of the deposited data

Results flagged for a closer look

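Among 111 named genes, 2 had a control liver that stood far from the other 4 by Dixon's ratio (limit 0.71 for 5 samples). Chance gives such a sample in about 1 in 20 groups of unselected values. Many of the named genes were picked because the Fos-high arrays stood apart from the Fos-low arrays, so the 2 flags cannot be set against that rate. Cry1, a repressor of the clock, read 7.81 in control_liver_14M replicate 1 and 5.33 to 5.96 in the other controls, with a ratio of 0.746. Ighm, the IgM heavy chain, read 9.73 in control_liver_11M replicate 1 and 7.69 to 8.25 in the others, with a ratio of 0.726. It was among the genes named for a large gap between the Fos-high arrays, so its flag is not independent of that choice. The array that stood apart for Cry1 is a Fos-low liver, and that for Ighm is a Fos-high liver.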

How the results depend on the processing

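The count of genes at least 2-fold higher in Fos-high livers, 251, was 475 over all probe sets and 618 at 1.5-fold, and 255 to 282 with a control left out. That of lower genes, 70, was 337 over all probe sets, 283 at 1.5-fold, 41 within both ages, and 68 to 97 with a control left out. Leaving out a control can only relax the no-overlap rule, so the ranges with a control left out are no check of it. Between ages, 1 gene passed without both Fos-high arrays, and 0 to 1 with an array left out. The tumour count, 3657, was 6958 over all probe sets, 1368 without both Fos-high arrays, and 1814 to 4359 with an array left out, with 1963 without control_liver_11M replicate 1 and 1814 without replicate 2. Of its 3657 genes 1288 passed in both fits. Repeated quantile normalisation gave 1707 higher and 2130 lower, against 1872 and 1785. The tumour differences that changed sign without both Fos-high arrays were 1.57 for Fos, 0.12 for Fosb, 1.46 for Jun and 1.17 for Junb. With an array left out they ranged from -2.42 to 0.46 for Fos, -1.59 to 0.69 for Jun, -1.22 to 0.60 for Junb and -0.11 to 0.23 for Fosl1, which turned without KO_tumor_11M replicate 2. Between Fos-high and Fos-low livers, 760 values of 84 named genes stayed within the spread of the arrays, and 80 of 41 genes moved beyond it. None changed sign, but these genes all had groups that did not overlap. Leaving out an array or taking 1 age could therefore not change their sign. No paired analysis was possible because replicate numbers only name the samples and pair nothing. With 2 Fos-high arrays that nearly coincide, the spread of such livers is not known.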

Other observations

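Probe sets without a gene name leaned the opposite way from named ones. Of 9160 unnamed probe sets, 45 were at least 2-fold higher in the Fos-high livers with no overlap (0.491%) and 147 were lower (1.60%). Of 34945 probe sets naming 1 gene, 412 were higher (1.18%) and 181 were lower (0.518%). Of 64 array controls none differed by this rule.

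A few strongly different genes stand outside all lists. Dmbt1, a secreted scavenger protein, read 7.10 and 6.83 in the Fos-high livers, 3.17, 3.35 and 3.28 in the Fos-low livers and 2.97 to 3.44 in the 8 tumours. Ugt2b37, a glucuronosyltransferase, read 8.43 and 8.61 against 5.61, 5.65 and 4.80. Cpe, a carboxypeptidase that matures peptide hormones, read 6.31 and 5.25 against 2.62, 3.24 and 2.85, and 6.40 to 9.19 in tumours. Mup10, a major urinary protein made under growth hormone, was lower (-1.61), with 10.41 and 10.66 in the Fos-high livers and up to 12.40 in the Fos-low livers, and the tumours read 3.78 to 8.72.

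Spiked controls followed the titles in part. BioB was lowest among the controls in control_liver_14M replicate 3, whose title has no number (7.35), and the tumours whose titles have no animal number, KO_tumor_14M replicates 1 and 2, read 6.94 and 7.50 among tumours of 6.94 to 8.25.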
